A study of Mus musculus with 2 samples.

Results

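Dbp, Tef, Hlf, Nfil3, Ciart, Bhlhe40, Bhlhe41, Usp2 and Wee1 are genes through which the circadian clock reaches its targets, and they were followed here in the mouse pancreas. They were found as every probe set whose platform gene symbol is one of these names. This gave 16 probe sets for all 9 genes, out of 18193 genes with a probe set of their own on the array. The first pool held pancreas RNA of male offspring of C57BL/6J dams on a methionine-deficient diet in pregnancy, and the second held that of male offspring of dams on the control diet. Offspring of both groups ate control diet from weaning at 3 weeks and were 10 weeks old. Neither group had an altered gene, and the strain is an inbred laboratory one. The RNA of each group was pooled and put on 1 array, so the spread between mice and between arrays could not be measured. No p-value is given for any difference below. The sources used here give neither the number of mice per pool nor the hour at which tissue was taken.

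The clock is a loop in which the CLOCK and BMAL1 proteins bind E-box DNA, with the core letters CACGTG, and switch on their own repressors. The same binding drives genes outside the loop, among them Dbp. The DBP, TEF and HLF proteins, named PAR bZIP factors after a proline- and acid-rich stretch beside a basic leucine zipper, activate genes through D-box DNA, and NFIL3 represses through the same sites. Such output genes go up and down over the day in most mouse organs, and both the exocrine pancreas and the islets have a clock of their own.

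Dbp and Ciart were at least 2-fold higher in the methionine-deficient pool, and Wee1, Usp2 and Hlf were at least 1.5-fold higher. Tef and Bhlhe41 were higher by less, Nfil3 was nearly equal in both pools, and Bhlhe40 was lower. Counted by the brightest probe set of each gene, 7 of the 9 genes were higher and 2 lower, while 50% of the 11848 genes past the level filter were higher. The 2 genes at least 2-fold higher stand beside 3.87% of all genes, and the 5 genes at least 1.5-fold higher beside 10.4%. None of the 9 was at least 2-fold lower, beside 2.8% of all genes. The genes were chosen by name with these intensity differences between the pools in view, so the counts describe the choice and support nothing. The same holds for the ranks and shares given below for single genes and probe sets. The median log2 difference of the 9 genes was 0.66, against -7.75e-06 over all 11848 genes. It was 0.31 when the probe sets of a gene were averaged and 0.30 when the second brightest probe set was used where there was one.

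Differences are log2(intensity + 1) in the methionine-deficient pool minus the same in the control pool. Each has as its error the probe-set spread, a robust SD of the log2 difference of 1 probe set, taken from pairs of probe sets of the same gene at like level. It covers probe noise within these 2 arrays and nothing of the spread between mice. The spread was 1.86 below the level filter, an intensity of 150, and over 5 bins above it 0.77, 0.60, 0.46, 0.31 and 0.18 from dim to bright. Of the 9 genes, 6 were higher by more than this spread and none was lower by more than it, beside 17.2% and 16.8% of all genes.

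**Figure D1:**
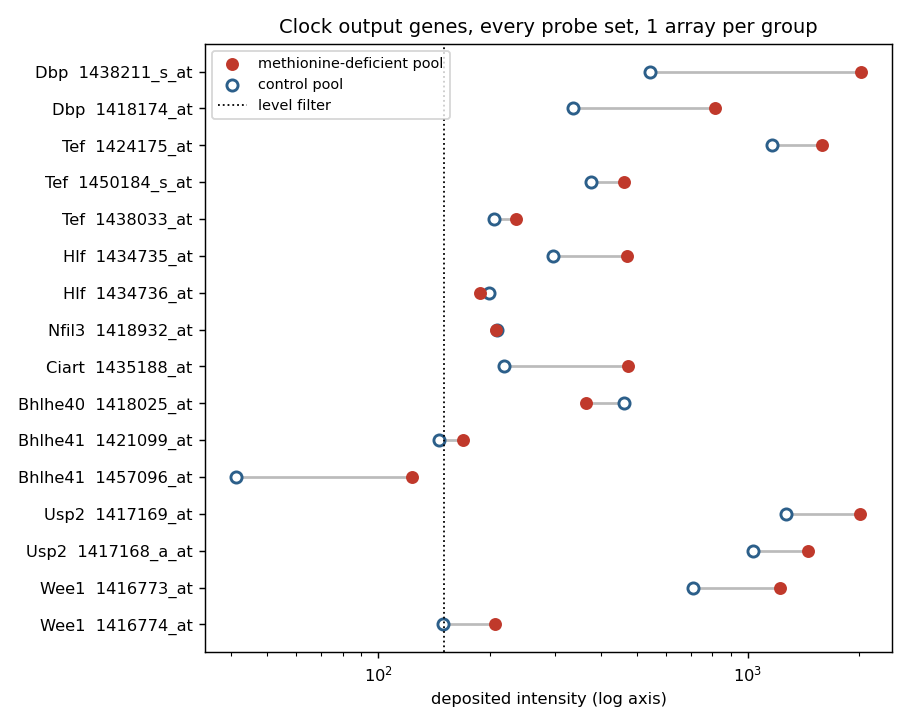
Deposited intensity (log axis) of each of the 16 probe sets of the 9 genes, with a filled red point for the methionine-deficient pool and an open blue one for the control pool. The dotted line is the level filter at an intensity of 150; the red point lies to the right of the blue one for 13 of the 16 probe sets, most widely for Dbp above the filter.

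Among the PAR bZIP activators, Dbp had the widest gap. DBP, first found as a protein on the albumin promoter, is a transcriptional activator whose mRNA has one of the strongest daily rhythms in mouse tissues. Its brighter probe set, 1438211_s_at, had an intensity of 2026 in the methionine-deficient pool and 545 in the control pool. The log2 difference was 1.89 with a probe-set spread of 0.31, which is 3.71-fold higher. The other, 1418174_at, had 817 in the methionine-deficient pool and 337 in the control pool, a log2 difference of 1.28 with a spread of 0.46. Both probe sets were thus at least 2-fold higher, by more than the spread. Every probe set reached this size in 5 genes, Dbp included, which is 0.104% of the 4819 genes with more than 1 probe set above the filter. Within its bin of 4504 probe sets at like level, 1438211_s_at had the largest positive difference, and 35 of 4503 probe sets reached that of 1418174_at in its own bin, that probe set included. Because Dbp was chosen with its difference in view, these ranks only describe that choice.

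Dbp was also set beside bright genes in general, because dim probe sets scatter widely. Of 3934 genes at least as bright as Dbp, 15 reached 2-fold on the higher side and 6 on the lower, and Dbp had the largest positive difference. The next by size were U2af2, a splicing factor gene, with 3769 in the methionine-deficient pool and 1319 in the control pool (log2 difference 1.51), and Gpaa1, which encodes a part of the enzyme that attaches GPI anchors, at 1.49. Lce1h, Tfpt and Tpd52l2 followed with 1.36, 1.35 and 1.32. With 1 array in each group, likeness to Dbp here means only the size of 1 difference. A further probe set of Gpaa1 had -0.11 and one of Tpd52l2 had -0.03, and the lowest for Tfpt was 0.30, so these genes varied more among their own probe sets than Dbp did.

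**Figure D2:**
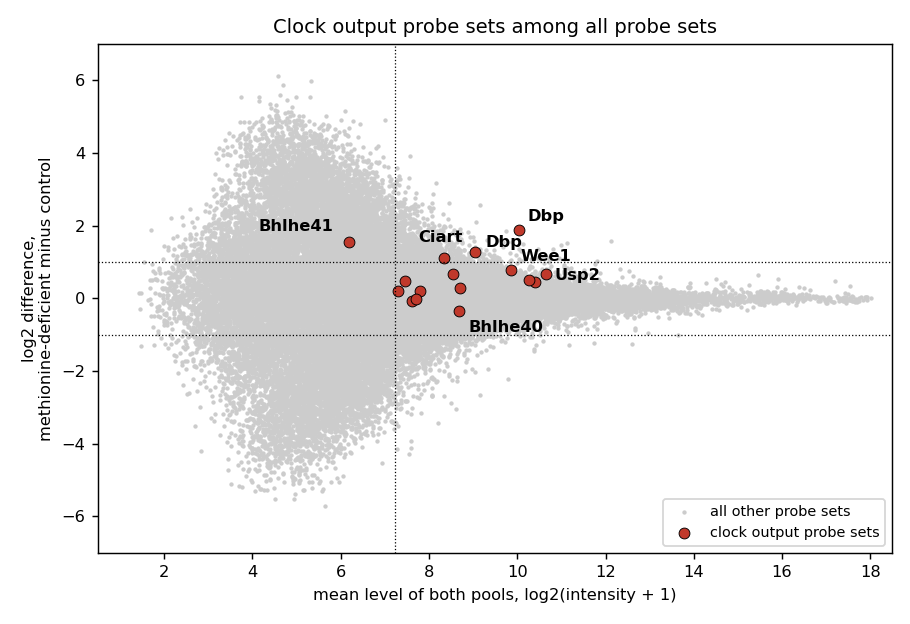
Log2 difference (methionine-deficient minus control) against the mean level of both pools for each probe set, with the 16 probe sets of the 9 genes in red and all others but array controls in grey. Dotted lines mark 2-fold differences and the level filter; grey points fan out towards dim levels, and the brighter Dbp probe set lies above the grey cloud at its level, at 1.89.

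TEF, thyrotroph embryonic factor, binds the same DNA as DBP. All 3 Tef probe sets were higher in the methionine-deficient pool, by small amounts. The brightest, 1424175_at, had 1588 in the methionine-deficient pool and 1162 in the control pool, a log2 difference of 0.45 with a spread of 0.31. Probe set 1450184_s_at had 463 in the methionine-deficient pool and 377 in the control pool (log2 difference 0.30, spread 0.46), and 1438033_at had 236 and 206 in the same order (0.20, spread 0.77). Only the brightest exceeded its spread, and 404 of 4504 probe sets at like level, or 8.97%, were as high or higher.

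HLF, hepatic leukemia factor, is the third activator, and its probe sets disagreed. Probe set 1434735_at had 470 in the methionine-deficient pool and 297 in the control pool, a log2 difference of 0.66 with a spread of 0.46. The dimmer 1434736_at had 188 in the methionine-deficient pool and 200 in the control pool, a log2 difference of -0.08 with a spread of 0.77. The direction given for Hlf is therefore that of its brighter probe set alone.

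Nfil3, the gene of the repressor that competes with the PAR bZIP proteins for D-boxes, has 1 probe set. It had an intensity of 208 in the methionine-deficient pool and 210 in the control pool, with a log2 difference of -0.02 and a spread of 0.77. A spread of that size would hide a difference as large as that of Tef or Hlf.

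**Figure D3:**
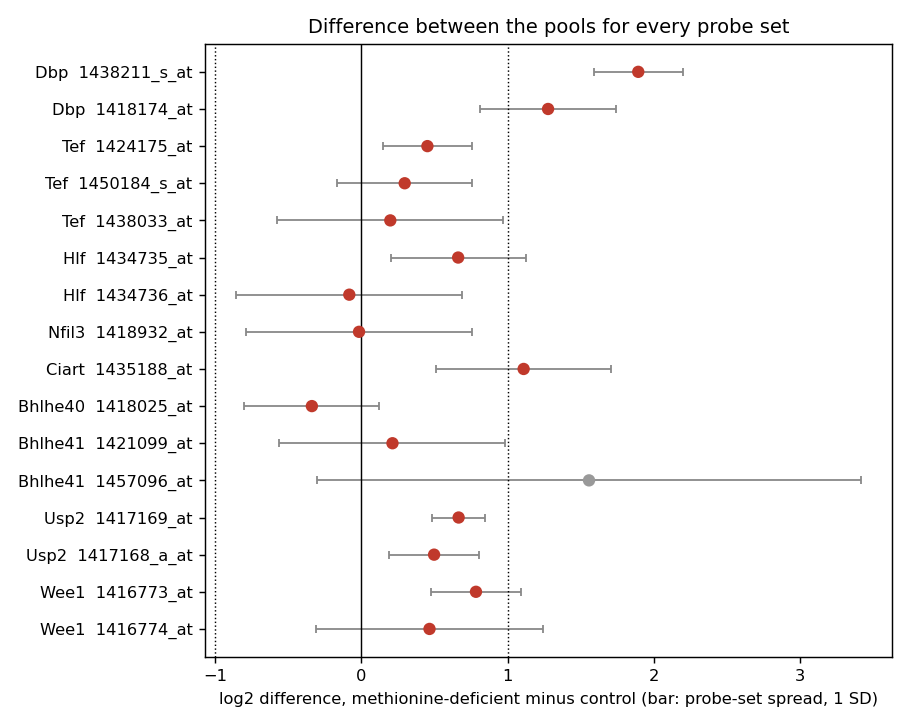
Log2 difference (methionine-deficient minus control) of each probe set of the 9 genes, with a bar of 1 probe-set spread on either side. Red points passed the level filter and the grey one did not; dotted lines mark 2-fold differences, which 3 red points reached, at 1.89 and 1.28 for Dbp and 1.11 for Ciart.

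The repressors of the set act on the clock loop itself. Ciart, also called Chrono, encodes a protein that binds BMAL1 and dampens it. Its single probe set, 1435188_at, had 472 in the methionine-deficient pool and 218 in the control pool, a log2 difference of 1.11 with a spread of 0.60. That is 2.16-fold higher, and 203 of 4504 probe sets at like level, or 4.51%, reached it. With the arrays scaled to their poly-A spike-in controls it was 0.93, below 2-fold.

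Bhlhe40 and Bhlhe41 encode the related proteins DEC1 and DEC2, which bind E-boxes and oppose CLOCK and BMAL1. Bhlhe40 had 366 in the methionine-deficient pool and 463 in the control pool through its only probe set, a log2 difference of -0.34 with a spread of 0.46. It was lower by more than Nfil3, the other gene of the 9 on that side, and the difference lay within the spread. Bhlhe41 had 169 in the methionine-deficient pool and 146 in the control pool through 1421099_at, a log2 difference of 0.21 with a spread of 0.77. Its other probe set, 1457096_at, had 123 in the methionine-deficient pool and 41.3 in the control pool. The log2 difference of 1.56 came from below the level filter, where the spread was 1.86 and 29.4% of probe sets were at least 2-fold higher, so it was not counted. For neither DEC gene did a difference exceed its error.

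Usp2 and Wee1 are effectors outside the transcription factor families. USP2 is a protease that removes ubiquitin from proteins, clock proteins such as PER1 among them, and its mRNA is rhythmic in many mouse organs. Probe set 1417169_at had 2014 in the methionine-deficient pool and 1270.4 in the control pool, a log2 difference of 0.66 with a spread of 0.18. Probe set 1417168_a_at had 1456 in the methionine-deficient pool and 1032 in the control pool, a log2 difference of 0.50 with a spread of 0.31. Both were higher by more than the spread, and 40 of 4504 probe sets at like level, or 0.888%, were as high as the brighter one. WEE1 is the kinase that holds back entry into mitosis by phosphorylating CDK1, and in mouse liver its transcription follows the clock. Its brighter probe set, 1416773_at, had 1223 in the methionine-deficient pool and 710 in the control pool (log2 difference 0.78, spread 0.31). The dimmer 1416774_at had 206 in the methionine-deficient pool and 149 in the control pool (0.47, spread 0.77). Both were higher, the brighter one by more than its spread, and 76 of 4504 probe sets at its level, or 1.69%, were as high.

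Across the whole set, 6 genes had more than 1 probe set, and for 5 of them (Dbp, Tef, Bhlhe41, Usp2 and Wee1) every probe set was higher. Of all 9010 genes with more than 1 probe set, 18.2% had every one higher. In all 16 probe sets 13 were higher and 3 lower, and 8 were higher by more than their spread, beside 51.2% and 17.2% of all probe sets on the array. In Dbp, Tef, Hlf, Usp2 and Wee1 the brightest probe set of the gene gave the highest difference, and in Bhlhe41 the dimmest did.

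The promoters of the set were read for the sites through which the clock acts. RefSeq promoter sequences (GRCm38.p6) were matched by symbol for 7 of the 9 genes, all but Wee1 and Bhlhe40, and gave 8 windows of 250 bases before a transcription start, 2 of them for Tef. CACGTG, which reads the same on both strands, was found in 4 windows of 3 genes, and in 6.02% of 32841 mouse promoter windows of this length. It is in capitals below in the windows that hold it, and the Dbp window, which does not, is shown beside them as that of the gene with the widest gap. The Ciart window (chr3:95882229-95882478, minus strand) holds it 3 times, starting 116, 58 and 44 bases before the transcription start. At least 3 copies occur in 0.0609% of all windows. The Tef windows (chr15:81802423-81802672 and chr15:81811164-81811413, plus strand) hold it once each, and so does the Bhlhe41 window (chr6:145865421-145865670, minus strand). The Dbp window is chr7:45704997-45705246 on the plus strand.
Ciart: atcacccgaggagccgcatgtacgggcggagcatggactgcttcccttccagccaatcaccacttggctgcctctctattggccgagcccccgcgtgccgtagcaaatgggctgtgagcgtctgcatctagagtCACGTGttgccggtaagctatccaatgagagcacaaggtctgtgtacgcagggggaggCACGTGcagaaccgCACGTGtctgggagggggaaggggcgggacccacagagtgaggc
Tef, first start: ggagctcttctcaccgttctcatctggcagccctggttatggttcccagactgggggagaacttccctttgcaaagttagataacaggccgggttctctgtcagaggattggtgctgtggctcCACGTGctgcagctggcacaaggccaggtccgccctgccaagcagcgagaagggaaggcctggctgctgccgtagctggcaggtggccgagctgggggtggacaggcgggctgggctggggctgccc
Tef, second start: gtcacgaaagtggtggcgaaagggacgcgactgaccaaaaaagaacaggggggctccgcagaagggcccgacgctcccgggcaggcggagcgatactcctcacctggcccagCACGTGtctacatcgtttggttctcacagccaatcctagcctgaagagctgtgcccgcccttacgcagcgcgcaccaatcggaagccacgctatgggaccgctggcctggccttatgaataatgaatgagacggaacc
Bhlhe41: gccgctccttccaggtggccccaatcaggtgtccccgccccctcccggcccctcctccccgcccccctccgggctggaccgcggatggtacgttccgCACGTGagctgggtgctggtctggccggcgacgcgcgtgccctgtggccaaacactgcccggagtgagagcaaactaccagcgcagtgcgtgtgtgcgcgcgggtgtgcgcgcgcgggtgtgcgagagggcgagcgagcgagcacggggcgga
Dbp: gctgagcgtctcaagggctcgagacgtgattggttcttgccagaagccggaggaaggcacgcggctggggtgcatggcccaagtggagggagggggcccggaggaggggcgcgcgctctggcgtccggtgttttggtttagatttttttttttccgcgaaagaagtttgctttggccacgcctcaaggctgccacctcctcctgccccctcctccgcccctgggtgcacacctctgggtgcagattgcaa

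The genes with CACGTG in these windows had log2 differences of 1.11 (Ciart), 0.45 (Tef) and 0.21 (Bhlhe41). Those without it had 1.89 (Dbp), 0.66 (Hlf and Usp2) and -0.02 (Nfil3), so both kinds of window were found among higher genes. The D-box strings TTATGTAA, TTATGCAA and TTACGTAA, searched on both strands, were in none of the 8 windows and in 1.61% of all windows. They were in windows of the period genes Per1, once in 1 of its 2 windows, and Per3, which holds 2 copies. A match describes letters only, and sites farther away, such as those inside a gene, were not searched.

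By the brightest probe set of each gene past the level filter, the genes of the loop that drives these outputs had smaller differences than Dbp. Of 18 core clock genes listed, 16 were measured and 15 passed the level filter, 8 of them higher and 7 lower, with a median log2 difference of 0.03, and no gene reached 2-fold in its brightest probe set. The period genes, whose proteins repress CLOCK and BMAL1, were all higher in their brightest probe sets. Per1 had 1007 in the methionine-deficient pool and 726 in the control pool (log2 difference 0.47, spread 0.31). Per2 had 0.84 (spread 0.77) in its brightest probe set and 0.40 (spread 0.77) in the next, and its dimmest lay below the filter. Per3 had 0.50 (spread 0.60) through 1 of its 6 probe sets, the others being below the filter.

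Arntl, the gene of BMAL1, had 839 in the methionine-deficient pool and 823 in the control pool, a log2 difference of 0.03, and a dimmer probe set had -0.78 with a spread of 0.77. Cry1, another repressor gene of the loop, had -0.38 (spread 0.60). Nr1d1, the gene of REV-ERB alpha, which represses Arntl, had 0.21 (spread 0.60). For its relative Nr1d2 the brightest probe set had 2854 in the methionine-deficient pool and 2493 in the control pool, a log2 difference of 0.19, and the second had 737 and 249 in the same order, a log2 difference of 1.56 with a spread of 0.46. Csnk1d, a kinase that marks period proteins for breakdown, was lower at -0.69 (spread 0.18), with 4 of its 5 probe sets lower and the other at 0.44 (spread 0.31). Timeless had -0.74 (spread 0.77). Rora, a further gene of the list, had -0.07 (spread 0.18) in its brightest probe set. Its other probe sets past the filter ran from -1.07 (spread 0.60) to 0.61 (spread 0.77). Clock had -0.19 (spread 0.18) in its brightest probe set, while its other probe sets past the filter had 0.16 and 0.25, within their spread. By the brightest probe set, then, Per1, Per2 and Nr1d2 were higher by more than their spread, and Csnk1d and Clock were lower by more than theirs.

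Genes known as targets of the PAR bZIP proteins in mouse liver and brain were mostly dim here. Of 9 listed, 6 were measured and 3 passed the filter, all higher in their brightest probe set. Pdxk, the kinase gene that makes the active form of vitamin B6 and a PAR bZIP target in mouse brain, had 524 in the methionine-deficient pool and 252 in the control pool (log2 difference 1.05, spread 0.60). Alas1, the first enzyme of haem synthesis, had 0.05 (spread 0.46), and its second probe set had 167 in the methionine-deficient pool and 552 in the control pool, a log2 difference of -1.72 with a spread of 0.60. Cyp2b10, a drug-metabolising enzyme gene of the liver, had 0.11. Pdxk thus exceeded its spread on the higher side, with its other probe sets below the filter, and the second probe set of Alas1 exceeded its own on the lower side.

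By the brightest probe set, a pair of genes outside the loop that are rhythmic in many mouse organs went opposite ways. Tsc22d3, a glucocorticoid-induced gene, had 0.19 (spread 0.18), and Tspan4, a membrane protein gene, had -0.74 (spread 0.60). The other Tsc22d3 probe sets had -0.08 (spread 0.18), 0.08 (spread 0.31) and 1.09 (spread 0.77). The 4 C/EBP genes, which encode other leucine zipper factors, were split, 2 higher and 2 lower in their brightest probe sets, with Cebpa at -0.60 (spread 0.31), Cebpg at -0.22 (spread 0.18), Cebpb at 0.16 and Cebpd at 0.11 (spread 0.31 each). The second probe sets of the last 3 went the other way, with 0.36 for Cebpg (spread 0.31), -0.25 for Cebpb (spread 0.46) and -0.82 for Cebpd (spread 0.60). Of 5 genes that act with WEE1 at entry into mitosis, 3 passed the filter. Pkmyt1, the other kinase that inhibits CDK1, had -0.79 (spread 0.77), while the opposing phosphatase genes Cdc25a and Cdc25b had -0.21 (spread 0.18) and 0.39 (spread 0.77). Wee1 and Pkmyt1 thus went opposite ways, and none of the 3 was higher by more than its spread.

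**Figure D4:**
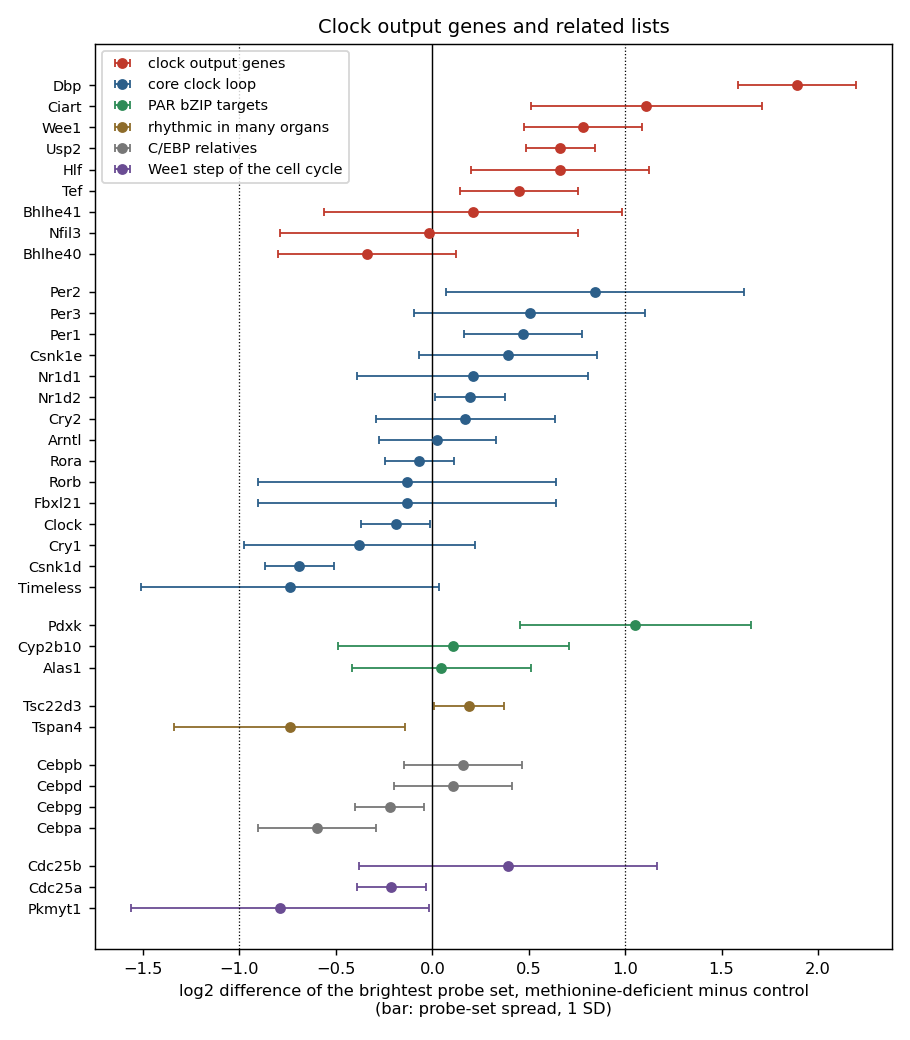
Log2 difference (methionine-deficient minus control) of the brightest probe set of each gene past the level filter, with a bar of 1 probe-set spread on either side. Genes are ordered by difference within the 9 clock output genes (red) and 5 related lists; Dbp and Ciart, and Pdxk among the lists, lie beyond the dotted 2-fold line.

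The tissue label was checked against markers. In their brightest probe sets, the 5 measured acinar enzyme genes had intensities of at least 139181 in both pools and differed by at most 0.06 on the log2 scale. Their summed intensity was 982690 in the methionine-deficient pool and 982103 in the control pool. The 5 islet hormone genes summed to 179538 in the methionine-deficient pool and 171654 in the control pool, with 2 higher and 3 lower. By the brightest probe set only Gcg exceeded its spread, with 28591 in the methionine-deficient pool and 21772 in the control pool (log2 difference 0.39, spread 0.18). The dimmest Iapp probe set also did, with 3577 in the methionine-deficient pool and 2748 in the control pool (log2 difference 0.38, spread 0.18). Sums are of the brightest probe set of each measured gene. Markers of some other cells differed between the pools. All 4 measured B and plasma cell genes were lower, with a sum of 5083 in the methionine-deficient pool and 10119 in the control pool. The 3 adipocyte genes were lower in their brightest probe sets, with 12988 and 15357 in the same order. The second probe set of Fabp4 went the other way, with 6807 in the methionine-deficient pool and 3855 in the control pool (log2 difference 0.82, spread 0.18). The 4 measured duct genes summed to 1812 in the methionine-deficient pool and 1479 in the control pool. Of these, 3 passed the filter and were higher, and Cftr, below it, had 46.2 and 129 in the same order. The 3 endothelial genes summed to 1260.1 and 852, with both genes past the filter higher within their spread in their brightest probe sets and Kdr, below it, at 261 and 61.4. A second Cdh5 probe set went the other way, with 149 and 212 in the same order (log2 difference -0.50, spread 0.77). The 3 macrophage genes summed to 3039 and 1874 in the same order. C1qa was at 1.01 (spread 0.18), while Adgre1 had 0.03 and Cd68 had -0.19 (spread 0.60 each). The 4 T cell genes summed to 1344 and 1156 in the same order. The T cell genes past the filter went opposite ways, with Cd8a at 0.53 (spread 0.31) and Cd4 at -1.73 (spread 0.77). No marker was at 0, and the part of these cells in the differences of the clock output genes was not tested. In pooled tissue RNA, more cells of a type and more RNA per cell cannot be told apart.

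RNA quality shows in the 3′ to 5′ ratio of control probe sets. For Actb it was 1.76 in the methionine-deficient pool and 1.46 in the control pool, and it was 1.11 and 0.973 in the same order for Gapdh. Its part in the differences was not tested. The 24 poly-A spike-in probe sets, bacterial transcripts that can be added before labelling, differed by a median of 0.18 on the log2 scale, with 23 higher. The 18 hybridization controls had -0.02 with 8 higher. Subtracting the poly-A offset lowered every difference by 0.18. This left Dbp as the only gene of the 9 at least 2-fold higher, beside 2.46% of all genes. As before, 7 of 9 were higher, beside 31.0% of all genes.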

How the data were processed

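Pancreas RNA pooled per group was labelled as biotin cRNA with a 3′ IVT kit and put on 1 Affymetrix array per pool, per the labels. The authors deposited 1 linear intensity for each probe set. How background was removed and arrays were scaled, and with which program, is not stated in the sources used here. With 2% of probe sets trimmed from either end, both arrays had a mean of 500.003, so a difference in total RNA would not be seen. Detection calls were not used, and dim values may be background. The number of arrays limits the precision.

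Of 45101 probe sets, 34945 had 1 gene symbol (platform annotation of 2016, brought to current symbols by gene identifier), 932 had several, 9160 had none and 64 were array controls. Those with several symbols or none were not counted as genes. Some listed genes were not analysed here. Intensities were taken to log2(value + 1), which slightly understates differences of dim genes, without further scaling. A gene took the value of its brightest probe set and was kept from the median level upward. All probe sets of the 9 genes are shown, and 15 of 16 passed this filter.

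The genes named were every member, the genes of pathway and marker lists (values for the largest differences and for the main loop genes), and 5 bright genes with the largest positive differences. Clock, Cftr, Kdr, Cd4, Cd8a and further probe sets of list genes were named after their values were seen. The members, lists and rules were chosen with earlier results of these data known. The calculations of the counts and the spread were run on simulated data with independent noise for each probe set. That run cannot show that the spread holds for real probe sets. Alternatives were other scalings, pseudocount, filter, gene value and size of difference. Python 3.11.15, numpy 2.4.6, pandas 2.3.3, statsmodels 0.14.6 and matplotlib 3.10.9 were used.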

Additional observations from a re-analysis of the deposited data

How the results depend on the processing

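Scaling to the medians, quantile and loess scaling and a pseudocount of 16 kept 2 of the 9 genes at least 2-fold higher, 0 at least 2-fold lower and 7 higher, with medians from 0.61 to 0.64. Scaling to the poly-A controls, which moved the median of all genes by -0.18, gave 1 gene at least 2-fold higher and a median of 0.48. It also left 31.0% of all genes higher in place of 50%, and 2.46% at least 2-fold higher against 4.39% at least 2-fold lower. No probe set of the 9 genes turned sign in 80 values under these 5 alternatives, and 79 moved by less than their spread. Dropping the level filter, or the probe sets that can bind several transcripts, changed none of these counts, and the median was 0.66 in both. The 75th percentile level filter kept 4 genes, all 4 higher and 1 at least 2-fold higher, with a median of 0.72. Of all genes past that filter, 47.9% were higher and 0.753% at least 2-fold higher. Averaging probe sets gave a median of 0.31. At a size of 1.5-fold 5 genes were counted as higher, and at 3-fold 1, beside 10.4% and 1.09% of all genes. Added after seeing the data, the second brightest probe set gave a median of 0.30 with 6 genes higher, beside 50.8% of all genes. Leaving out Dbp, also added then, gave a median of 0.56 and 1 gene at least 2-fold higher, beside 3.87% of all genes. None of the 9 genes was at least 2-fold lower under any of the 13 settings tried. The share of all genes counted as lower ran from 0.55% with the 75th percentile filter to 11.01% with no level filter. With 4 to 9 genes counted, 0 does not set them apart from all genes. The cause of the shifts in counts and medians between settings was not tested, except that fewer genes pass a stricter filter. No paired analysis was possible because each group is 1 pool on 1 array, and no array can be left out. Dim probe sets also limit precision: Nfil3, Bhlhe41 and the dimmest probe sets of Tef, Hlf and Wee1 had a spread of 0.77 or more.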
